A study of Mus musculus with 6 samples.

Results

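The loci of 6 genes that mark epithelial cells were examined: Cdh1, Grhl2, Epcam, Krt8, Krt18 and Esrp1. Members were chosen by position: a listed peak belonged to a locus when it overlapped, by at least 1 bp, a window of the mouse build mm9 set around that gene. The windows were chr8:109123000-109197000 for Cdh1, chr15:37159000-37297000 for Grhl2, chr17:88032000-88054000 for Epcam, chr15:101824000-101838000 for Krt8, chr15:101855000-101866000 for Krt18 and chr4:11255000-11317000 for Esrp1. They held 17 of the 38760 peaks in the 6 deposited lists. The genes and windows were picked with these peak lists already known, so presence and width of the peaks are given as a description, and no test rests on them.

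The lists come from ChIP-seq, the sequencing of DNA that an antibody recovers with its histone mark, in C57BL/6 mouse embryonic fibroblasts (MEFs), connective-tissue cells cultured from embryos. Treated cells had been exposed to a chemical combination named 6TCF in the labels for 6 days. Control cells of the same day were untreated. The growth protocol, given alike for all libraries, describes a serum medium with basic fibroblast growth factor. The sources used here give neither the composition of 6TCF nor whether embryos were pooled. For each condition there was 1 library titled H3K4me3, 1 titled H3K27me3 and 1 of input DNA, the sheared chromatin before precipitation. With 1 library per group, no difference between treated and untreated cells has a replicate error, and no p-value is given. The antibody field of the labels disagrees with the titles: it names H3K4me2 for the libraries titled H3K4me3 and H3K4me1 for those titled H3K27me3. The titles are followed here, and every statement on a mark below means the library of that title.

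The treated and untreated lists held 18185 and 17168 H3K4me3 peaks, 821 and 1242 H3K27me3 peaks, and 604 and 740 input peaks. The lists give positions only, so width in base pairs (bp) is the sole quantity per peak. Read depth is unknown. Presence and width of a peak both depend on depth, antibody yield and calling threshold, and their part in the differences below was not tested. A locus without a listed peak is therefore not shown to lack the mark. The lists carry no gene names, so the fibroblast identity of the cells was not checked against marker genes.

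Trimethylation of histone H3 at lysine 4 (H3K4me3) marks promoters that are active or ready for use, and its domain often broadens over strongly transcribed genes. Trimethylation at lysine 27 (H3K27me3) is laid down by Polycomb repressive complex 2 and is found over silenced developmental genes. Promoters that carry both are called bivalent, a state known from genes that are silent in a given lineage and kept in readiness. Overlapping peaks of separate libraries do not show that both marks sat on the same chromosomes of the same cells. Fibroblasts are mesenchymal cells, in which the epithelial programme is normally held down by Snail and Zeb repressors that bind E-box sequences of epithelial promoters. Cdh1 encodes E-cadherin, the adhesion molecule of epithelial junctions, and Epcam encodes another epithelial surface adhesion protein. Grhl2 encodes a grainyhead transcription factor that activates junction genes such as Cdh1. Esrp1 encodes an RNA-binding protein that sets the epithelial splicing pattern. Krt8 and Krt18 encode the partner keratins of simple epithelia, whose proteins pair into filaments.

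The RefSeq promoter table (build GRCm38.p6) matched 3 of the 6 genes, namely Epcam, Krt8 and Krt18, and their promoters are shown because these loci cover 3 different outcomes: both marks in both conditions, H3K4me3 in treated cells only, and H3K4me3 alone in both conditions. Cdh1, Grhl2 and Esrp1 had no entry. Each sequence runs 5′ to 3′ on the gene's strand, from 250 bases before the annotated start to 50 after it. Capitals mark CACCTG in either orientation, the E-box form bound by Snail and Zeb proteins, and TATAAA in either orientation, the letters of the TATA box. Epcam is at chr17:87635729-87636028 (plus strand), Krt8 at chr15:102004293-102004592 (minus strand) and Krt18 at chr15:102027966-102028265 (plus strand). These positions are of another build than the peaks, so the distance from a peak to these bases was not measured.
Epcam: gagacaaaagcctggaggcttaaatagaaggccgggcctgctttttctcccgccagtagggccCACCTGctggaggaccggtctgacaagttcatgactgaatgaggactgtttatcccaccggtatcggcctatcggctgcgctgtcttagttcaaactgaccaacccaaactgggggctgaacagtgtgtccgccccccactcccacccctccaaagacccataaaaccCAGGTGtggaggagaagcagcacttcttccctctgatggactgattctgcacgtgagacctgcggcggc
Krt8: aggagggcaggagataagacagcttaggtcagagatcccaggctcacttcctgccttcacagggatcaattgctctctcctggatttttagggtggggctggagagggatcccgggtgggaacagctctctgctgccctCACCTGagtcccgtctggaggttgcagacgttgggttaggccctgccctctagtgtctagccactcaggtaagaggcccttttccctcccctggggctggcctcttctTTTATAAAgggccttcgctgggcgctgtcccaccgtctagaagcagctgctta
Krt18: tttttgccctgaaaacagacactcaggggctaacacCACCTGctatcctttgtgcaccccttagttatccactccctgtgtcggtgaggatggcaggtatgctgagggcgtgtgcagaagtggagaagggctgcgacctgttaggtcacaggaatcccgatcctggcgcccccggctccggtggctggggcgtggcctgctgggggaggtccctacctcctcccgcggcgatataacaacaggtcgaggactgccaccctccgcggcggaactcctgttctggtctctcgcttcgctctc

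All 3 promoters held the CACCTG E-box, which was present in 20.2% of the 32851 promoters of the table. Epcam had 2 matches, which begin at positions -187 and -19 from the annotated start. Krt8 had 1 match at -111 and Krt18 had 1 at -214. The 2 overlapping TATA matches of Krt8, 1 on each strand, begin at -3 and -1. They lie across the annotated start itself, and whether they serve as a TATA box for it was not tested. TATAAA was found in 13.6% of all promoters, and in neither Epcam nor Krt18. The GC box CCGCCC, present in 35.7% of promoters, was found in Epcam at -58. The letters AACCGGT, the first part of the grainyhead site, were in none of the 3 and in 1.02% of all promoters. The general E-box CANNTG, which includes the CACCTG matches, was in all 3 and in 72.3% of promoters. The 3 sequences differ in CpG number, the property by which promoters that attract H3K4me3 and Polycomb are commonly classed. Krt18 had 17 CpG, Epcam 11 and Krt8 6, against a median of 7.00 over all promoters. The ratio of observed to expected CpG was 0.603 for Krt18, 0.454 for Epcam and 0.238 for Krt8, with a median of 0.384. GC content was 61.3%, 57.0% and 58.0% in the same order. A match describes the letters and does not show that a factor was bound.

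H3K4me3 was listed at all 6 loci in treated cells and at 5 of 6 in untreated cells, with a single peak per window and list. Each peak lay near the end of its window at which the gene starts. Cdh1, Grhl2, Epcam and Krt18 are read toward higher coordinates, and their peaks began between 2398 and 3630 bp from the lower end of the window. Krt8 and Esrp1 are read in the opposite direction, and their peaks ended between 1012 and 3923 bp from the upper end. These directions are background, given by the promoter table for 3 of the genes, and positions of start sites in mm9 were not used here. H3K27me3 was listed at 2 loci in treated cells, Cdh1 and Epcam, and at 3 in untreated cells, Cdh1, Grhl2 and Epcam. Every one of these H3K27me3 peaks overlapped the H3K4me3 peak of its own condition. No input peak was listed in any window, and none of the 17 peaks overlapped an input peak. The closest input peak to any window was 335 kb away, beyond Krt18 in untreated cells. Over the whole lists an input peak lay under 28.5% (treated) and 19.6% (untreated) of H3K27me3 peaks, and under 0.841% and 0.880% of H3K4me3 peaks.

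**Figure D1:**
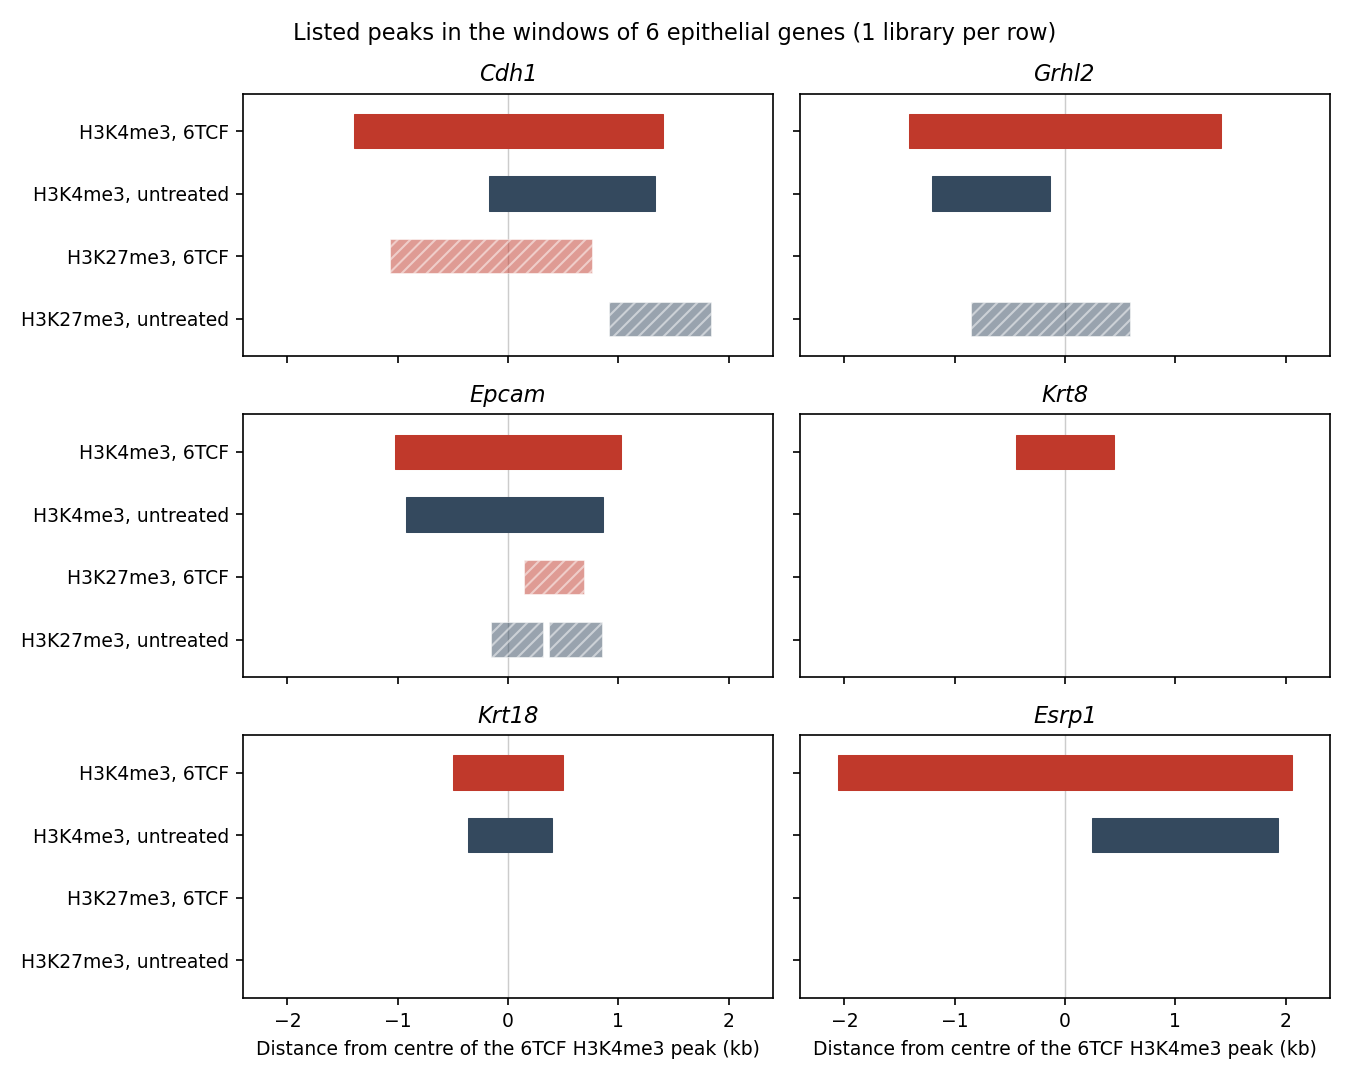
Listed peaks at the 6 loci, 1 panel per gene and 1 row per library. The horizontal axis is the distance in kb from the centre of the treated H3K4me3 peak, bars run from the start to the end of a peak, and input rows are left out because no input peak was listed. The treated H3K4me3 bar reaches past both ends of the untreated bar at 5 loci, and at Krt8 only the treated bar is present.

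Overlap of the marks was uncommon over the lists as a whole. Of all treated H3K4me3 peaks 1.36% (95% Wilson interval 1.21 to 1.54, counting error only) overlapped an H3K27me3 peak of their condition, as did 2.81% (2.57 to 3.07) of untreated ones. At the epithelial loci the numbers were 2 of 6 and 3 of 5 peaks. From the side of H3K27me3, 38.6% of treated and 47.5% of untreated peaks overlapped H3K4me3. Among pairs of H3K4me3 peaks, defined as 1 peak of each condition that meet only each other, 0.675% of 16153 had H3K27me3 in both conditions. Cdh1 and Epcam belong to these 109 pairs. Another 2.15% had H3K27me3 in untreated cells only, and Grhl2 is among these 347. Among pairs with H3K27me3 in untreated cells, those without a listed treated H3K27me3 peak (347) thus outnumbered those with one (109). The treated H3K27me3 list was also the shorter, with 821 peaks against 1242. Its median width was 149 bp against 211.5 bp, and 28.5% of its peaks overlapped an input peak, against 19.6%. A missing treated peak is therefore not shown to be a loss of the mark.

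At Cdh1 both marks were listed in both conditions, at different places. The H3K4me3 peak was 2801 bp in treated cells (chr8:109125398-109128198) and 1498 bp in untreated cells (chr8:109126630-109128127), a 1.87-fold difference. The treated peak reached 1232 bp further at the lower, upstream end and 71 bp further at the upper end. The H3K27me3 peak was 1832 bp in treated cells (chr8:109125731-109127562) and 926 bp in untreated cells (chr8:109127716-109128641). These peaks did not overlap, and 153 bp lay between them. The treated H3K27me3 peak was contained in the treated H3K4me3 peak and covered 65.4% of it. The untreated H3K27me3 peak lay across the upper, gene-side end of the untreated H3K4me3 peak, shared 412 bp with it and ran 514 bp past it. Of the 1232 bp that H3K4me3 covered in treated cells only, at the upstream end, 899 bp (73.0%) also lay under the treated H3K27me3 peak. By width the treated H3K27me3 peak ranked 3 of 821 and the untreated one 32 of 1242.

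At Grhl2 H3K27me3 was listed in untreated cells only, and H3K4me3 was the wider in treated cells. The H3K4me3 peak was 2829 bp in treated cells (chr15:37161897-37164725) and 1066 bp in untreated cells (chr15:37162109-37163174). The 2.65-fold ratio was the highest of the 6 loci, and 49 of all 16153 pairs had a higher one. Most of the additional length lay on the side of the gene body, with 1551 bp at the upper end and 212 bp at the lower end. The untreated H3K27me3 peak of 1438 bp (chr15:37162459-37163896) ranked 11 of 1242 by width. It shared 716 bp with the untreated H3K4me3 peak and ran 722 bp past its upper end. The treated H3K4me3 peak spanned the whole of that interval and ended 829 bp beyond it. The nearest treated H3K27me3 peak outside the window was 1714 kb away.

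Epcam had the lowest width ratio among the loci with a pair, while the difference in base pairs was smaller at Krt18 (238 against 255 bp). Its H3K4me3 peak was 2042 bp in treated cells (chr17:88034849-88036890) and 1787 bp in untreated cells (chr17:88034942-88036728), a 1.14-fold ratio that 3484 pairs exceeded. H3K27me3 was a single peak of 542 bp in treated cells (chr17:88036018-88036559). In untreated cells it was listed as a peak of 468 bp (chr17:88035719-88036186) and a peak of 475 bp (chr17:88036245-88036719), with 58 bp between them. The treated peak bridged that gap and overlapped the former by 169 bp and the latter by 315 bp. Epcam was thus the only locus of the 6 at which H3K27me3 peaks of the 2 conditions overlapped. All 3 lay inside the H3K4me3 peaks of both conditions and began at least 777 bp inside their upstream end.

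H3K27me3 peaks of the epithelial loci stood among the wide ones of their lists. Their widths were 542 and 1832 bp in treated cells and 468, 475, 926 and 1438 bp in untreated cells. The list medians were 149 and 211.5 bp, and those of the input lists were 146.0 bp (treated) and 142.0 bp (untreated). The median treated H3K27me3 peak was thus about as narrow as the median input peak. By width the treated Epcam peak ranked 31 of 821, and the untreated Epcam peaks ranked 191 and 183 of 1242. All 6 were at least 400 bp wide, as were 7.06% of treated and 20.6% of untreated H3K27me3 peaks in the whole lists. That limit lies just below the narrowest of the 6 (468 bp), so the count only describes them. Both treated peaks lay wholly inside their H3K4me3 peak, a relation found for 86.1% of the treated H3K27me3 peaks that overlap H3K4me3. In untreated cells the 2 Epcam peaks did so and those of Cdh1 and Grhl2 did not, against 75.3% overall.

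**Figure D2:**
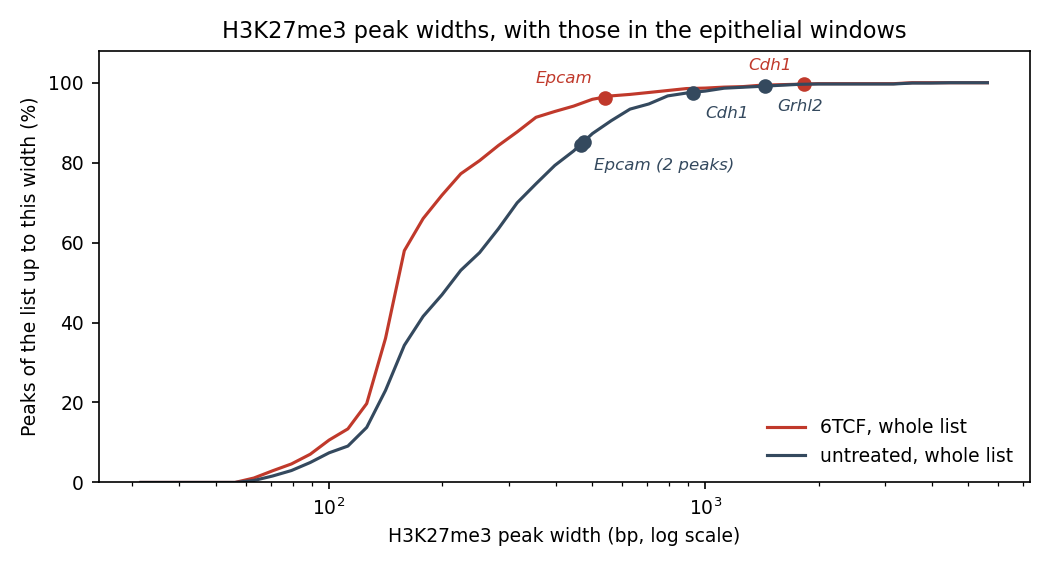
Width of H3K27me3 peaks. The curves give the percentage of each whole list up to a given width (log axis, bp), and dots mark the peaks in the epithelial windows, at the percentage of their list that was narrower. All 6 dots lie at 468 bp or more, to the right of the list medians of 149 bp (treated) and 211.5 bp (untreated).

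Esrp1 and the keratins carried no listed H3K27me3 peak in either condition. At Esrp1 the H3K4me3 peak was 4111 bp in treated cells (chr4:11311878-11315988) and 1690 bp in untreated cells (chr4:11314176-11315865). The 2.43-fold ratio was exceeded by 72 pairs, and the treated peak ranked 1376 of 18185 by width, the widest of the 6 loci. Of the additional length 2298 bp (94.9%) lay at the lower end, which is the gene-body side for this gene, and 123 bp at the upper end. The nearest H3K27me3 peak outside the window was 1097 kb away in treated and 8237 kb in untreated cells.

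The adjacent keratin genes had the narrowest H3K4me3 peaks of the set. At Krt18 the widths were 1003 bp in treated cells (chr15:101858193-101859195) and 765 bp in untreated cells (chr15:101858331-101859095), a 1.31-fold ratio. The treated peak reached 138 bp further at the lower end and 100 bp further at the upper end. At Krt8 a peak of 880 bp was listed in treated cells (chr15:101833198-101834077) and none in untreated cells. No peak of any library was listed in the 17.0 kb between the Krt8 and Krt18 windows. The Krt8 peak was wider than 9.45% of its list. Peaks without an untreated partner made up 10.2% of all treated H3K4me3 peaks and 51.1% (49.2 to 53.1) of the 2534 treated peaks of up to 1000 bp. A missing partner is therefore common among treated peaks of up to 1000 bp, to which the Krt8 peak belongs. The share at its own width was not counted.

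**Figure D3:**
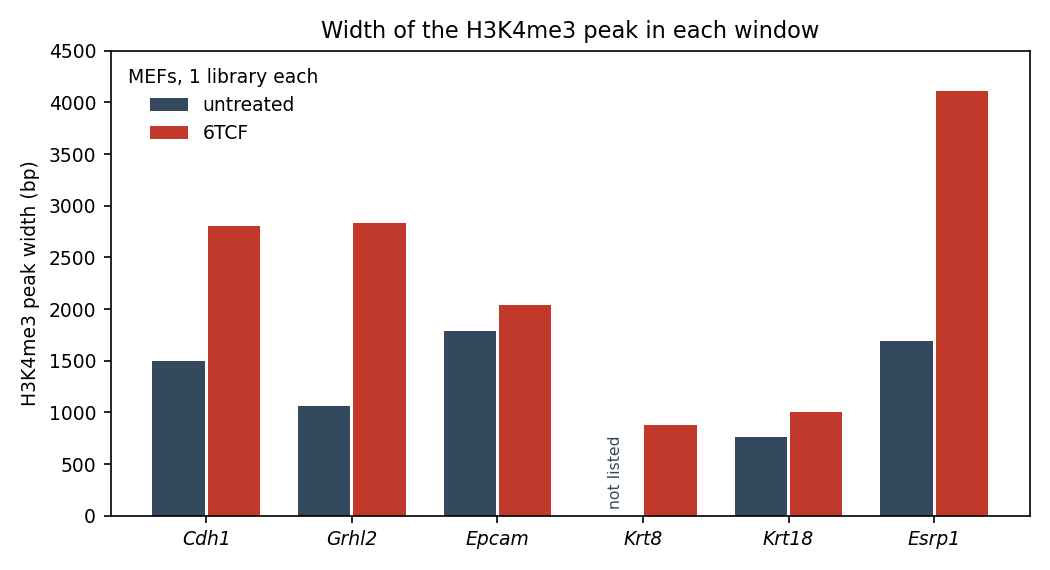
Width in bp of the H3K4me3 peak in each window, 1 bar per library, with no error bars because each condition had 1 library. The treated bar is the taller at all 5 loci with a pair, from 1003 against 765 bp at Krt18 to 4111 against 1690 bp at Esrp1, and no untreated peak was listed at Krt8.

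Set side by side, the treated H3K4me3 peak was wider than the untreated one at 5 of 5 loci with a pair, against 46.8% of all 16153 pairs. It was at least 1.5-fold wider at 3 of 5 (Cdh1, Grhl2 and Esrp1), against 5.03% of all pairs, while 2.58% of all pairs were at least 1.5-fold wider in untreated cells. At a limit of 1.2-fold Krt18 joined them, for 4 of 5 against 16.4%. At 2-fold 2 loci were left, Grhl2 and Esrp1, against 1.13%. On a log2 scale the treated-to-untreated width ratio had a median of 0.90 over the 5 loci and -0.02 over all pairs, whose standard deviation was 0.33. For the 609 pairs with an H3K27me3 peak of either condition the median was 0.25, and Epcam lay below it. Single values were 1.41 at Grhl2, 1.28 at Esrp1, 0.90 at Cdh1, 0.39 at Krt18 and 0.19 at Epcam. Epcam lay within 1 standard deviation of the median of all pairs and Krt18 past it, and 78.4% and 89.9% of pairs had a lower ratio. For Cdh1, Esrp1 and Grhl2 the figures were 98.4%, 99.5% and 99.7%. The untreated peaks of these 5 loci were 765 to 1787 bp wide, all below their list median of 2115 bp. They were wider than 5.55% (Krt18) to 38.5% (Epcam) of that list. The shares over all pairs include wider untreated peaks, and pairs of like untreated width were not counted apart. Since the loci were picked with these widths known, their ranks describe them and carry no test.

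**Figure D4:**
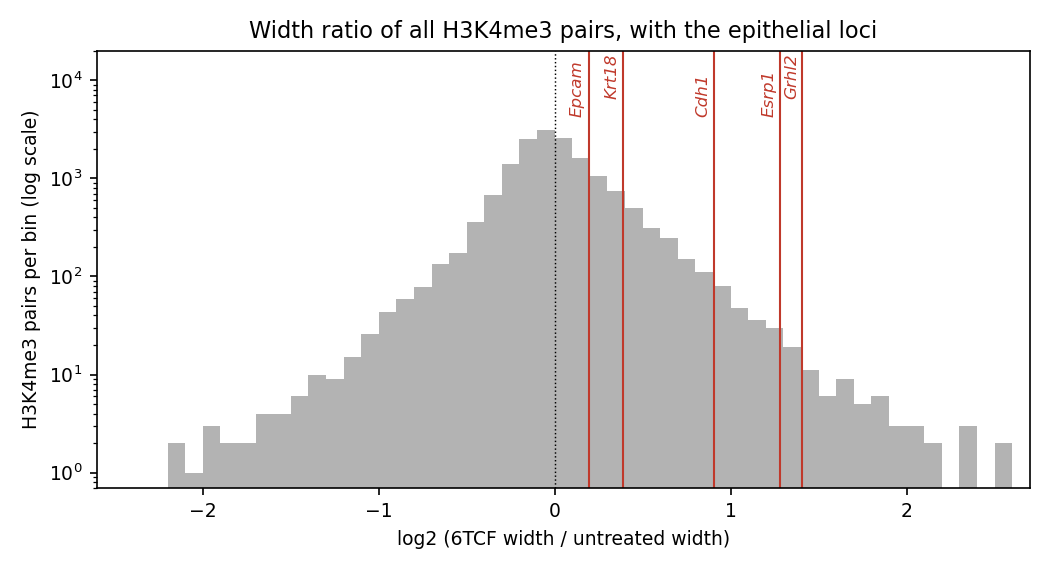
Distribution of the log2 ratio of treated to untreated width over all 16153 H3K4me3 pairs (grey bars, log count axis), with the 5 epithelial loci that have a pair as red lines. All 5 lines lie above 0, at 0.19 (Epcam), 0.39 (Krt18), 0.90 (Cdh1), 1.28 (Esrp1) and 1.41 (Grhl2).

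The ends of the peaks differed in a common way. At all 5 loci the treated peak contained the untreated one and extended past both of its ends, which held for 27.5% of all pairs. Only a wider treated peak can do so, and it held for 4448 of the 7554 pairs that were wider in treated cells. The trait is therefore not separate from the width. An extension of at least 1000 bp at 1 end was present at 3 loci, Cdh1, Grhl2 and Esrp1, and in 2.93% of all pairs. These extensions were one-sided, and the sides differed: the lower end at Cdh1 and Esrp1, and the upper end at Grhl2. By the gene directions given above as background, that is the upstream side at Cdh1 and the gene-body side at Grhl2 and Esrp1. Where these bases lie relative to a start site was not measured. At Grhl2 722 of the 1551 bp (46.6%) lay under the untreated H3K27me3 peak. At Cdh1 none of the 1232 bp at the lower end did, and at Esrp1 no H3K27me3 was listed. Width ratios were also counted by H3K27me3 over all pairs. Pairs that overlapped an H3K27me3 peak of either condition were at least 1.5-fold wider in treated cells in 19.4% (16.4 to 22.7) of 609 cases, and pairs without one in 4.46% (4.15 to 4.80) of 15544. A wider treated peak is more likely to meet an H3K27me3 peak, so this grouping depends in part on the width itself. When H3K27me3 had to overlap the part common to both members, a rule added after the data were seen, the shares were 17.3% (14.3 to 20.7) of 539 and 4.60% (4.29 to 4.94) of 15614. Of the epithelial loci, Cdh1, Grhl2 and Epcam fall under the former and Esrp1 and Krt18 under the latter by either rule. Each group thus held loci at least 1.5-fold wider and 1 below that limit, Epcam (1.14-fold) with H3K27me3 and Krt18 (1.31-fold) without. Whether width goes with H3K27me3 at these loci was not tested.

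The nearest H3K4me3 peaks outside the 6 windows were listed in both conditions and overlapped each other, and 5 of these 6 were wider in untreated cells, as were 53.1% of all pairs. The closest to a window was an H3K4me3 peak 4.62 kb below Esrp1, with 2571 bp (treated) and 2676 bp (untreated). Below Krt8, at 9.09 kb in treated cells, the widths were 752 and 929 bp, and above Cdh1, at 9.38 kb, they were 1683 and 1757 bp. Farther off were peaks 15.9 kb above Krt18 (1329 and 1388 bp), 17.1 kb above Epcam (2058 and 1910 bp, the exception) and 91.3 kb above Grhl2 (1307 and 1635 bp). The nearest H3K27me3 peak outside any window was 30.5 kb above Krt18, in treated cells, with a width of 132 bp.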

How the data were processed

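Peak lists of 6 libraries were used, 1 per group. The lists are deposited by the authors as positions only, with no score or read number; starts count from 0, and positions here count from 1. Per the submitters' processing notes, mm9, HOMER, MACS 1.4.3, Bowtie2 2.2.5 and CASAVA 1.7 were used, in roles the notes leave unstated. The calling threshold and control are not given in these sources. Overlaps, pairs and ranks were computed over whole lists in Python 3.11.15 with scipy 1.17.1. Pairing and width ratios were tested on simulated data with known changes, while ranks and overlaps between marks were not. A peak belonged to a window at 1 bp overlap. A pair was called different at a 1.5-fold width difference. The members, windows and gene lists were chosen with earlier results of these data known. The text names all 6 genes and every peak in their windows. Further epithelial and mesenchymal genes listed in the design were not analysed here, because the gene table is of another build. Width is not signal strength. Alternatives were other overlap rules, wider windows, removal of input-overlapping peaks, equal list lengths, other fold limits and centring.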

Additional observations from a re-analysis of the deposited data

How the results depend on the processing

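None of 55 alternative values reversed a direction. Only the log2 ratios could do so, and their alternatives left them equal or shifted all of them alike. Several alternatives were bound to leave the members unchanged. No member overlapped an input peak, every member lay wholly inside its window, and each window held at most 1 H3K4me3 peak per list. Removing input-overlapping peaks, asking for more of a peak inside the window and summing H3K4me3 lengths therefore say nothing about robustness. The same holds for counting both marks anywhere in the window, since every H3K27me3 member overlapped H3K4me3. It also holds for keeping only H3K27me3 peaks of at least 300 bp, since the narrowest member had 468 bp. No count moved by more than 1.5 times, and no log2 ratio by more than the spread of all pairs. The share of H3K27me3 pairs called wider stayed within its 95% interval. The 539 pairs of that alternative are all among the 609 of the main count, so the nearness of the shares says little about robustness. Widening the windows by 5 kb added the pair below Esrp1, giving 7 treated and 6 untreated H3K4me3 peaks. Asking for an overlap of at least 50% of the shorter peak left 2 loci with both marks in untreated cells instead of 3, because the overlap at Cdh1 was 44.5% of its H3K27me3 peak. Keeping the same number of widest peaks in both lists removed treated H3K4me3 peaks under 764 bp and untreated H3K27me3 peaks under 157 bp, and no member. With limits of 1.2-fold and 2-fold, 4 and 2 loci were called wider in treated cells. Dividing by the median ratio of all pairs shifts every log2 ratio by the same small amount, and it gave a median log2 ratio of 0.92. No replicate could be left out, and no paired analysis was possible because each group held 1 library. Depth is unknown, so no limit of detection can be given for Krt8 in untreated cells or H3K27me3 at Grhl2 in treated cells.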
